A study of Homo sapiens with 4 samples.

Results

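HBE1, CA2 and KEL, 3 genes of the red cell lineage, were followed through 4 RNA sequencing libraries of MEG-01 cells. They are 3 of the 426 genes in the deposited table, and they were picked by name from that table, which holds only genes that the authors called as changed between OGT-depleted and wild-type cells. That contrast therefore chose them, and every difference between the groups given here for these 3 genes is a description with no test of its own. In the authors' deposited table the values behind the choice were log2 fold changes (adjusted p in brackets) of 1.44 (2.32e-16) for HBE1, 0.56 (0.00574) for CA2 and -0.49 (0.0159) for KEL. The gene closest to the authors' limit of 0.05 in that table was ATP5E, at an adjusted p of 0.0497, and genes beyond the limit are not analysed here.

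MEG-01 is an established human megakaryoblastic line, derived from a chronic myeloid leukaemia in blast crisis, and its labels say that it sheds platelet-like particles. The 2 wild-type (WT) libraries and the 2 OGT-depleted libraries, titled CR_OGT with the genotype OGT depletion, came from cells grown in the same RPMI1640 medium with serum, and the labels name no added agent. The series' design text describes a knockdown of OGT by CRISPR/Cas9. OGT is the transferase that puts O-linked N-acetylglucosamine on nuclear and cytosolic proteins. The guide, the state of the edited allele, whether the depleted cells are 1 clone or a pool, and whether WT cells received a control guide are facts that the sources used here do not give, nor do they say that replicates were separate cultures, so their spread may be technical.

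The deposited FPKM imply library totals of 17643474 to 19883586 reads, and the counts of the called genes came to 3.97% to 4.26% of them. Whether these totals are reads counted to genes or all aligned reads is not given. OGT itself stood at 16012 and 19190 normalized read counts in WT and at 9124 and 12185 in OGT-depleted libraries, 60.5% of WT on average. Of 20 megakaryocyte and platelet markers only TUBB1 and F2R are in the table, so the identity of the cells could not be checked from the lineage's defining genes. In bulk RNA, more cells of a kind and more RNA per cell cannot be told apart, and this holds for each gene below.

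The red cell and megakaryocyte lineages share a progenitor and much of their transcription machinery, including the factors GATA1, TAL1 and NFE2. Globin genes of the beta cluster lie in the order in which they are used in development, with the embryonic epsilon gene nearest to the distal enhancers called the locus control region. Epsilon globin pairs with alpha-like chains in the haemoglobin of yolk-sac red cells and is normally silenced later. Carbonic anhydrase II, made by CA2, interconverts carbon dioxide and bicarbonate in the red cell cytosol and is also made by many other cells. KEL encodes the Kell blood group glycoprotein, a zinc endopeptidase of the neprilysin family that is held in the red cell membrane with the XK protein and can activate endothelin-3.

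Of the 3 genes KEL has an entry in the RefSeq promoter table used here, and HBE1 and CA2 have none. Short stretches before the KEL start are shown because they hold letters that match the motifs of GATA factors and of the CACCC-box factors such as KLF1, which act in red cell and megakaryocyte genes. The stretches are from RefSeq on build GRCh38.p14, minus strand, written 5′ to 3′, each of 30 bases, and capitals mark the matched motif. They are counted from the RefSeq start, with -1 the base just before it.
KEL -74 to -45 (chr7:142962408-142962437): cctgagaagctgAGATAAagggggaggaga
KEL -30 to -1 (chr7:142962364-142962393): ccacTGATAAgcaggctCCACCCagaggcc
The motifs searched on both strands over the 250 bases before the start were, for GATA factors, AGATAA and its variant TGATAA as well as their forms ending in G, which are AGATAG for the former and TGATAG for the latter, and, for the CACCC box, CCACCC. KEL had AGATAA at -62 to -57, TGATAA at -26 to -21 and CCACCC at -13 to -8, all on the gene's own strand and without overlap. Among 35116 promoters of the same length, 9.17% held AGATAA, 6.66% TGATAA and 31.3% CCACCC. Any of the 4 GATA motifs stood in 22.3%, 2 or more GATA matches in 4.96%, and these together with CCACCC in 0.703%. That last combination is the one that KEL holds, so its share does not measure how unusual KEL is. These matches describe the letters only, and no binding was measured. GENCODE release 29 begins its longest KEL transcript further upstream, so that both stretches fall in the first exon, before the coding sequence, in that annotation.

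HBE1 was higher after OGT depletion in either replicate than in any WT library, and its difference was the widest of the 3 genes. It is annotated on chromosome 11 (5289582 to 5526847, minus strand, hg19, ENSG00000213931) as a protein-coding gene. Raw reads of HBE1 numbered 982 (replicate 1) and 726 (replicate 2) in WT, against 3535 (replicate 1) and 2674 (replicate 2) after depletion, and values below keep that order. Divided by the authors' size factors, the WT libraries held 1034 and 748 normalized read counts and the depleted ones 3349 and 2563. The groups did not overlap: the lower OGT-depleted library was 2.48-fold above the higher WT library. Listed genes were chosen for a difference between the groups, so lack of overlap, here and below, says little about any of them. The share of the 426 without overlap is not given here. The HBE1 means were 891 ± 202 and 2956 ± 556 (SD, n = 2), which is 1.73 ± 0.17 as log2 fold change (SE). By fold HBE1 was 11th of the 248 higher genes, whose median was 1.87-fold, and by the authors' p-value it was 2nd of all 426, after SLC25A6.

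FPKM are fragments per kilobase of transcript, scaled to the library total. Per length, HBE1 had 59.3 and 45.4 FPKM in WT and 196 and 157 in OGT-depleted libraries. Ordered by mean FPKM among the called genes, it moved from place 60 in WT to place 20 after depletion. The FPKM of HBE1 rests on a deposited length of 906 b. In GENCODE release 29, 2 coding transcripts of 918 b and 913 b begin far upstream of the coding exons, while another, of 616 b, begins next to them. With the length of the short transcript the level of HBE1 would be 1.47 times higher in every library, 87.3 and 66.8 FPKM in WT and 289 and 230 in OGT-depleted libraries, and the fold would not move. Which of these transcripts the reads came from was not tested.

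The long transcripts give HBE1 an annotated span that takes in 19 other genes of GENCODE release 29 (used for names and lengths only, as its build is GRCh38), 11 of them protein-coding and many of them olfactory receptor genes. Exon bases of 3 of these (HBG2, OR51B5 and AC104389.4) overlap those of HBE1. None of the 19 is in the table. HBG2 encodes a fetal gamma globin, and as the counter and its treatment of shared or multiply aligned reads are not given, the split of reads between HBE1 and its globin relatives is uncertain.

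The nearest called gene to HBE1 on either side was another member of the beta-globin cluster, the pseudogene HBBP1, which makes a non-coding transcript. It lies on chromosome 11 (5263184 to 5264767, hg19, ENSG00000229988), 0.0248 Mb from the annotated 3′ end of HBE1. HBBP1 had 695 and 542 normalized counts in WT and 1147 and 901 in OGT-depleted libraries, so its groups did not overlap either. Its mean was 1.66-fold higher after depletion, which is 0.73 ± 0.16 as log2 fold change (SE, n = 2 per group). Per deposited length (455 b) HBBP1 was at 79.4 and 65.5 FPKM in WT, above HBE1 in the same libraries, and at 134 and 110 FPKM after depletion, below it. The FPKM ratio of HBE1 to HBBP1 was 0.747 and 0.693 in WT, then 1.47 and 1.43 with OGT depleted. With the 616 b transcript of HBE1 this order in WT would not hold, since 87.3 and 66.8 FPKM are above the values of HBBP1. The next called gene on the other side, MUC15, lies 21.1 Mb away. No other globin gene is in the table: of 11 globin and globin chaperone genes on the list, HBE1 alone was called, and the levels of the adult, fetal and alpha-like genes are not analysed here.

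CA2 was also higher in both OGT-depleted libraries, by a smaller margin. It lies on chromosome 8 (86376081 to 86393722, plus strand, hg19, ENSG00000104267). Raw reads numbered 1083 and 938 in WT, against 1869 and 1583 after depletion. After scaling the WT libraries held 1140 and 966 normalized counts and the depleted ones 1771 and 1517. The lower OGT-depleted library was 1.33-fold above the higher WT library. The means were 1053 ± 123 and 1644 ± 179 (SD, n = 2), 1.56-fold higher or 0.64 ± 0.13 as log2 fold change (SE). CA2 stood 190th of the 248 higher genes by fold, below their median. Its size depended on the scaling: with TMM factors taken from the called genes the log2 fold change was 0.43 and with DESeq2 size factors taken from them it was 0.15, and CA2 was not called with either. CA3-AS1 overlaps CA2 on the opposite strand in GENCODE without shared exon bases.

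KEL was lower in both OGT-depleted libraries. It lies on chromosome 7 (142638201 to 142659768, minus strand, hg19, ENSG00000197993). Raw reads numbered 1469 and 1618 in WT, against 1081 and 1214 after depletion, which gave 1547 and 1666 normalized counts in WT and 1024 and 1164 after depletion. The higher OGT-depleted library was at 75.2% of the lower WT library, so the groups did not overlap. The means were 1607 ± 84.6 and 1094 ± 98.7 (SD, n = 2), which put KEL at 68.1% of WT or -0.55 ± 0.12 as log2 fold change (SE). KEL was 123rd of the 178 lower genes counted from the lowest fold, and those genes had a median of 64.6% of WT. With the same alternative factors its log2 fold change was -0.77 and -1.04, away from 0 where CA2 moved toward it.

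**Figure D1:**
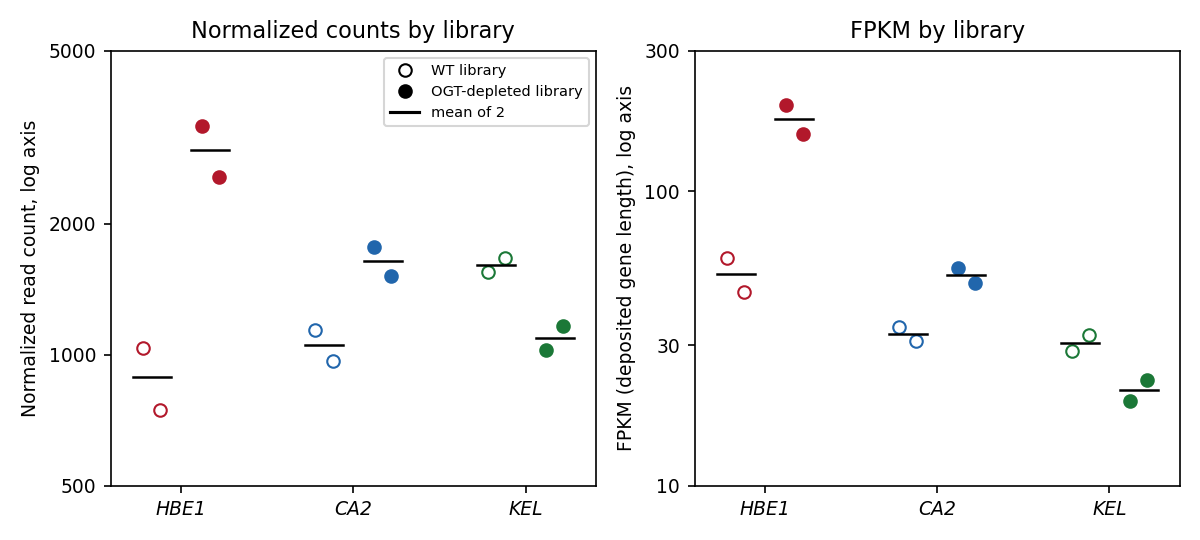
Normalized read counts (left) and FPKM (right) of HBE1, CA2 and KEL, both on log axes, with open points for the 2 WT libraries, filled points for the 2 OGT-depleted libraries (replicate 1 to the left of replicate 2) and bars for their means. HBE1 goes from 45.4 to 59.3 FPKM in WT to 157 to 196 after depletion, and CA2 is also higher and KEL lower. The groups do not overlap for these genes, which were chosen for a difference in this contrast.

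Compared per length, the 3 genes were closer to each other in WT than after depletion. In WT the FPKM of CA2 was 34.5 and 31.0 and that of KEL 28.6 and 32.6, so that CA2 was above KEL in replicate 1 and below it in replicate 2, and these neighbours did not differ beyond their spread. HBE1 was the highest in both WT libraries. In OGT-depleted libraries CA2 was at 54.7 and 48.9 FPKM and KEL at 19.3 and 22.9, and the order HBE1, CA2, KEL held in both without overlap. The FPKM ratio of HBE1 to KEL was 2.07 and 1.39 in WT and 10.1 and 6.84 after depletion, and the ratio of CA2 to KEL was 1.21 and 0.949 in WT and 2.83 and 2.14 after depletion. A ratio within a library does not depend on its scaling. With the 616 b transcript HBE1 would stand further above the other 2 genes in every library.

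All 3 genes were called in the authors' table by construction, where 3.24% of about 13154 tested genes were called (1.89% higher and 1.35% lower). In a refit with edgeR's quasi-likelihood test, 3 of the 3 genes were called (adjusted p under 0.05 over 13154 genes), beside 82.2% of the 426 listed genes. Only the listed genes could be refitted, and the rest of the 13154 entered the adjustment as not called. Refit calls thus came to 2.66% of the 13154 (1.63% higher and 1.03% lower), which is not a call rate over refitted genes. As the same contrast chose the listed genes, nothing is read from the 3 of 3. With each library left out in turn, the log2 fold changes were 1.52 to 1.98 for HBE1, 0.53 to 0.77 for CA2 and -0.65 to -0.47 for KEL. A group then has only 1 library, and calls became fewer among the members and across the listed genes, so those calls are not read. A permutation of 2 against 2 libraries cannot give a two-sided exact p below 0.333.

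The replicates of a group differed from each other by more than counting error for all 3 genes. Replicate 1 over replicate 2 was 1.38 for HBE1 in WT (95% exact binomial interval 1.26 to 1.52) and 1.31 in OGT-depleted libraries (1.24 to 1.37). The ratio was 1.18 for CA2 in WT (1.08 to 1.29) and 1.17 after depletion (1.09 to 1.25). KEL went the other way, at 0.928 in WT (0.864 to 0.997) and 0.880 after depletion (0.810 to 0.956). These intervals cover counting error only and compare single libraries. So HBE1 and CA2 were higher in replicate 1 of both groups and KEL lower in replicate 1 of both groups, and with the authors' size factors each gene's replicates differed by less than its groups. With DESeq2 size factors taken from the called genes this did not hold for CA2, whose groups then overlapped, at 1340.0 and 1158 in WT and 1447 and 1329 after depletion.

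Ratios of replicate 1 to 2 also varied with gene length across the table, and the 3 genes differ in length, with 906 b for HBE1, 1717 b for CA2 and 2812 b for KEL. Across the 426 genes, which are not independent replicates, Spearman's rank correlation between length and the log2 ratio of replicate 1 to 2 was -0.40 in WT and -0.55 in OGT-depleted libraries. The same correlation between length and the fold change between groups was -0.22. Of the 25 listed genes up to 1000 b, HBE1 among them, 22 were higher and 3 lower after depletion, with a median log2 fold change of 0.86, below the 1.73 of HBE1. Of the 53 genes over 1000 b and up to 2000 b, CA2 among them, 44 were higher and 9 lower, with a median of 0.71, close to the 0.64 of CA2. Of the 88 genes over 2000 b and up to 3000 b, KEL among them, 53 were higher and 35 lower, and the median of 0.57 had the opposite sign to KEL at -0.55. The median log2 ratio of replicate 1 to 2 in that class was 0.049 in WT and 0.11 in OGT-depleted libraries, above 0 where KEL was below it. In the classes of HBE1 and CA2 these medians were above 0, as were the ratios of both genes. Over all 426 listed genes 248 were higher and 178 lower, with a median log2 fold change of 0.56, close to that of the class of KEL. Of the 260 genes over 3000 b, 129 were higher and 131 lower, with a median of -0.44. The part of length in the 3 fold changes was not tested.

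**Figure D2:**
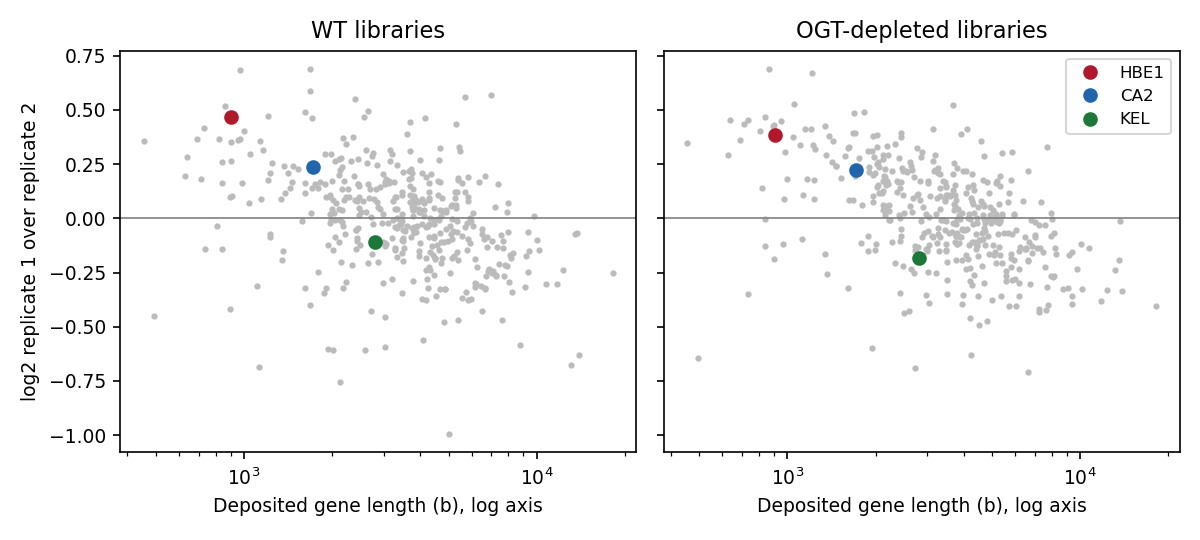
The log2 ratio of replicate 1 to replicate 2 (vertical axis) against the deposited gene length in bases (log axis) for the 426 listed genes in WT (left) and OGT-depleted (right) libraries, grey points for genes and coloured points for HBE1, CA2 and KEL. In both groups short genes tend to lie above 0 (Spearman -0.40 and -0.55), HBE1 and CA2 are above 0 and KEL is below it.

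Other genes of red cell function were looked up in 5 lists of globins, heme and iron, red cell enzymes, membrane and blood groups, and erythroid regulators. Of the 118 gene names reported from them, which include older names of some genes, 9 were in the table. Of these 8 were higher and 1 lower, and the refit called 7 higher and 1 lower. Their median log2 fold change was 0.84, against 0.56 over all 426 listed genes. These genes stand in the table because the same contrast put them there, so the counts describe it and no more. None of the 24 erythroid regulators, GATA1, KLF1 and TAL1 included, was in the table.

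Among heme and iron genes 2 of 24 were called, both higher. HMOX1, the heme oxygenase that breaks heme down, had 151 and 134 normalized counts in WT and 408 and 290 in OGT-depleted libraries, which is 1.30 ± 0.20 as log2 fold change (SE). FTH1, the heavy chain of the iron store ferritin, had 5621 and 5912 in WT and 10967 and 9715 after depletion, 1.79-fold higher. Both had groups that did not overlap, and no gene of heme synthesis on the list, such as ALAS2 or FECH, was in the table.

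Of 16 red cell enzyme genes 4 were listed, all higher, and 3 were called in the refit. PKLR, which encodes the pyruvate kinase of liver and red cells, had 200.1 and 198 normalized counts in WT and 452 and 526 after depletion, 2.46-fold higher. UBE2H, a ubiquitin-conjugating enzyme abundant in late red cell precursors, was also higher, at 0.58 ± 0.13 as log2 fold change (SE). GPX1, a glutathione peroxidase, was not called in the refit, at 0.52 ± 0.14 as log2 fold change (SE). Per length in WT, GPX1 was the most abundant of the 4 at 113 FPKM in both libraries, CA2 came next, and PKLR and UBE2H were far lower, at 4.20 to 6.23 FPKM.

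Of 43 reported gene names of the red cell membrane and blood groups, which include older names of some genes, 2 were listed, KEL and CD99, in opposite directions. CD99, a surface glycoprotein linked to the Xg blood group and made by many cell types, was 2.09-fold higher. The partner of Kell, XK, and the glycophorin, Rh and band 3 genes on the list were not in the table.

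**Figure D3:**
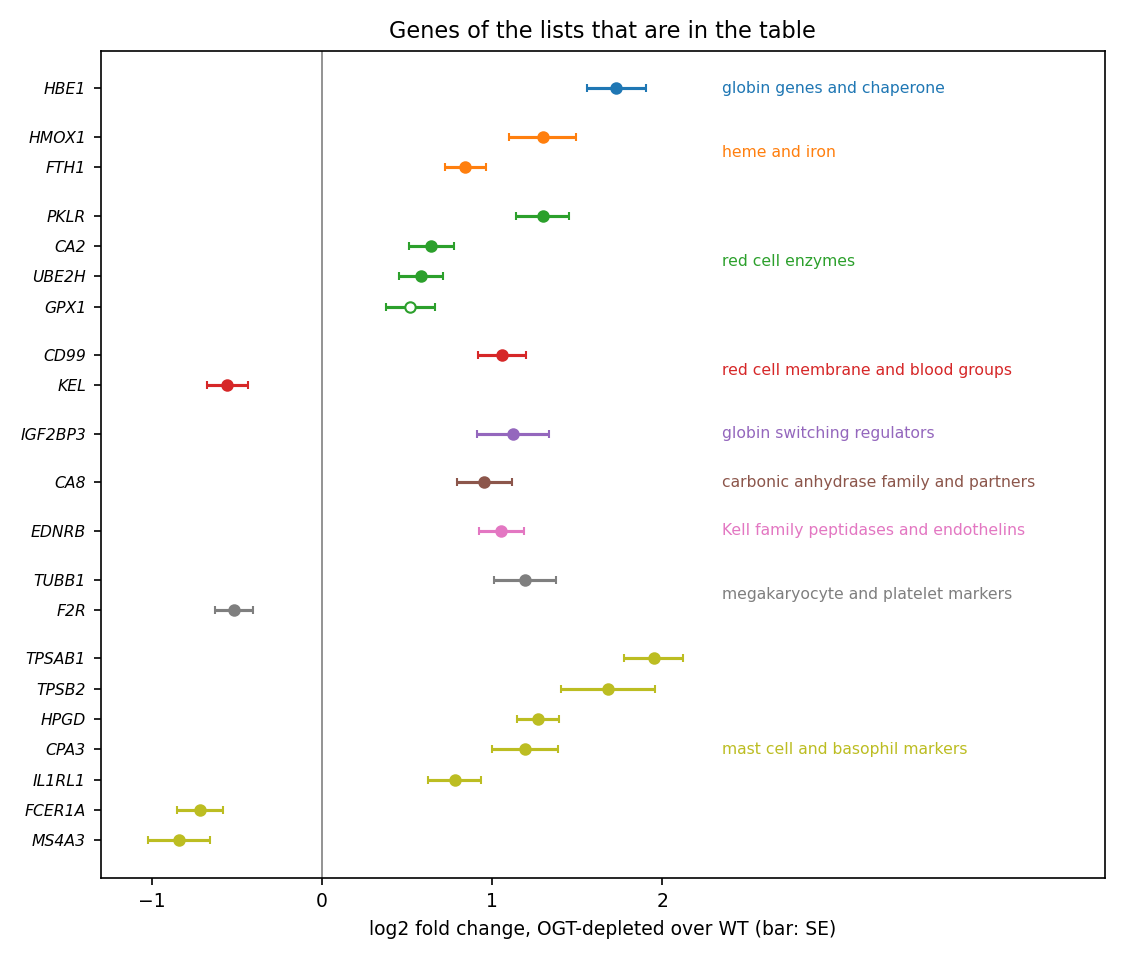
The log2 fold change of OGT-depleted over WT (horizontal axis, bars for SE, 2 libraries per group) for each gene of the lists that is in the table, with filled points for genes called in the refit and an open point for GPX1, which was not. HBE1 has the largest value of the erythroid lists at 1.73, and KEL lies below 0 at -0.55.

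Families of the 3 genes gave further listed relatives. CA8, a carbonic anhydrase relative without catalytic activity, was the other of 21 genes of the carbonic anhydrase family and its partners, and it lies on chromosome 8 too, 25.2 Mb before CA2. It had 150.4 ± 2.80 normalized counts in WT and 292 ± 11.8 in OGT-depleted libraries (SD, n = 2), which is 0.95 ± 0.16 as log2 fold change (SE). Of 14 Kell family peptidase and endothelin genes, the endothelin receptor EDNRB was listed with KEL but in the other direction, at 356 and 379 normalized counts in WT and 777 and 750 after depletion, 2.08-fold higher. IGF2BP3, an RNA-binding protein of the LIN28B and IGF2BP group that has been tied to fetal globin, was the listed gene among 28 regulators of globin switching. It had 192 and 240 normalized counts in WT and 369 and 571 after depletion, 2.18-fold higher. BCL11A, MYB and ZBTB7A, which restrain embryonic and fetal globin, were not in the table.

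Called neighbours of CA2 and KEL were distant or of another direction. After CA2 came DCAF4L2, 2.49 Mb away and 2.53-fold higher, and 19 of the 25 listed genes of chromosome 8 were higher. Before KEL came PODXL, 11.4 Mb away and at 57.7% of WT. After KEL came EPHA1-AS1, 0.445 Mb away and 2.91-fold higher, or 1.54 ± 0.28 as log2 fold change (SE). Its counts were low and unlike between WT replicates, at 28.4 and 57.7 normalized counts in WT and 109 and 142 after depletion. EPHA1-AS1 is an antisense RNA whose reads cannot be told from those of genes it overlaps. On chromosome 7, 14 of the 21 listed genes were higher and 7 lower, so KEL was among the fewer. On chromosome 11, 14 of 18 were higher.

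Markers of other blood cells moved in the same libraries. Of 15 mast cell and basophil genes 7 were listed, 5 higher and 2 lower, and their summed level was 272 to 315 FPKM in WT and 255 to 278 FPKM in OGT-depleted libraries, most of it from FCER1A, which was lower. Of 20 megakaryocyte and platelet genes 2 were listed, in opposite directions: TUBB1 was 2.29-fold higher and F2R was at 69.9% of WT. Their summed level was 35.9 to 36.9 FPKM in WT and 28.2 to 29.8 FPKM after depletion, most of it from F2R. No listed marker was at 0. The summed level of the 9 listed erythroid genes was 567 to 572 FPKM in WT and 984 to 1132 FPKM after depletion, and FTH1, which most cells make, gave the largest part of it. The part of other cell kinds in the changes of HBE1, CA2 and KEL was not tested.

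For each gene the listed genes with the most similar course over the 4 libraries were sought by the Euclidean distance between centred log2 values, among 394 other genes with a mean of at least 100 normalized counts. Nearest to HBE1 were EGLN3, a prolyl hydroxylase of the oxygen-sensing pathway (distance 0.224), the adhesion receptor gene GPR128 (0.240) and BAIAP3 (0.262). Nearest to CA2 were LY6E (0.0380), MRPL13 (0.0505) and CRADD (0.0682), the first and second also on chromosome 8. Nearest to KEL were TFEC (0.0165), a transcription factor gene, MGEA5 (0.0220), which encodes the enzyme that removes O-GlcNAc, and VWDE (0.0376), the first and last also on chromosome 7, as KEL is. HBE1 had no neighbour as close as those of CA2 and KEL. With 4 libraries and genes chosen on 1 contrast, such likeness is a description.

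TFEC, the nearest to KEL, was at 68.7% of WT beside 68.1% for KEL. MGEA5, next in distance, was at 68.8%, with 3567 and 3805 normalized counts in WT and 2355 and 2714 in OGT-depleted libraries. EGLN3 had 482 and 407 in WT and 1476 and 1214 after depletion, 3.03-fold higher beside 3.32-fold for HBE1. LY6E, a surface protein gene, was 1.59-fold higher beside 1.56-fold for CA2, at a higher level of 4868 and 4207 normalized counts in WT.

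**Figure D4:**
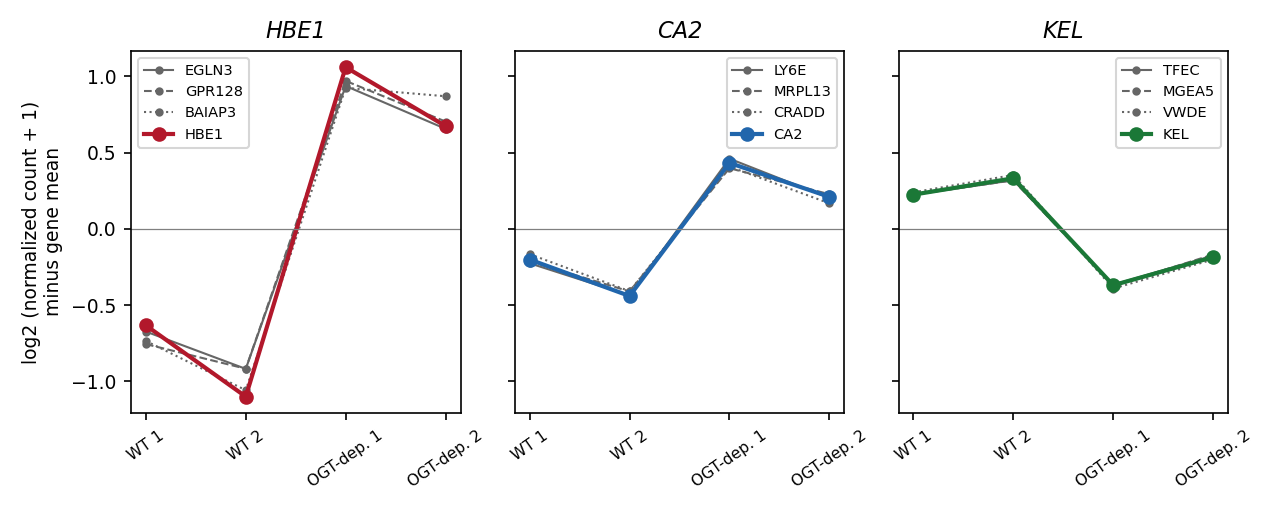
Log2 (normalized count + 1) minus the gene's mean over the 4 libraries (vertical axis) for HBE1, CA2 and KEL (coloured) and the 3 listed genes most like each (grey), by library. The lines of CA2 and KEL nearly coincide with those of their neighbours, while HBE1 is lower in WT replicate 2 and higher in OGT-depleted replicate 1 than its own.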

How the data were processed

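The members and gene lists were chosen with earlier results of these data known. Raw read counts per gene, FPKM, group means (a normalized signal), log2 fold changes and p-values with adjusted p-values were deposited by the authors, per the file headers, for called genes only. Gene lengths and hg19 positions are other columns that the authors deposited. The submitters' processing notes name CASAVA 1.8, STAR 2.5, TopHat and DESeq2, with no roles, and the build hg19. Counter, annotation and strand setting: not given in the sources used here. Antisense reads therefore cannot be told apart. Columns headed OGTi1 and OGTi2 were matched to CR_OGT replicates 1 and 2 by number, since the deposited CR_OGT mean is made from them.

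Library totals were recovered from counts, lengths and FPKM, and size factors (0.950, 0.971, 1.06 and 1.04 for WT 1 and 2 and OGT-depleted 1 and 2) from the group means. Normalized counts are counts over these factors. edgeR 4.0.16 in R 4.3.3 (glmQLFit, glmQLFTest) was fitted to all 426 genes with library sizes proportional to the factors, and tested on simulated data. SE is the log2 fold change over the root of F. Benjamini-Hochberg adjustment ran over 13154 genes, a number recovered from the deposited p-values, with genes outside the 426 entered as not called. Alternatives were other scalings, DESeq2 1.42.0, FPKM ratios, each library left out and a block on replicate number. Named genes were the 3 members, list genes in the table, the 3 nearest patterns per member and the nearest called gene on each side. SLC25A6, ATP5E and OGT, outside that rule, were named after their values were seen. A gene of the lists is not reported here and is left out of the lists' counts.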

Additional observations from a re-analysis of the deposited data

How the results depend on the processing

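The log2 fold changes of HBE1, CA2 and KEL kept their direction in each of 11 alternatives, with values from 1.24 to 1.98 for HBE1, 0.15 to 0.77 for CA2 and -1.04 to -0.47 for KEL. Leaving out each library in turn gave 1.52 to 1.98, 0.53 to 0.77 and -0.65 to -0.47. Larger moves than the replicate SD came from factors taken from the called genes: with TMM 0.43 for CA2 and -0.77 for KEL, and with DESeq2 size factors 1.24, 0.15 and -1.04 for HBE1, CA2 and KEL. Both take factors from genes chosen as changed. Listed genes called higher then numbered 135 with TMM and 77 with DESeq2 size factors, against 214, while those called lower numbered 178 with either, against 136. That put the higher share at 43.1% and 30.2% of calls, against 61.1%. Without 1 library the called members numbered 1 to 3, the genes called higher 32 to 223 and those called lower 5 to 122, the fewest without WT replicate 2. Same-numbered libraries of the 2 groups deviated together across the 426 genes (Pearson r 0.50). The labels give no shared source and there are only 2 pairs, so whether these libraries share a culture or a batch is not known. With the replicate number as a block in edgeR, 0 members, 0 higher and 0 lower genes were called. The log2 fold changes of HBE1, CA2 and KEL were then 1.73, 0.64 and -0.56, with smaller SE than in the main fit (0.052, 0.048 and 0.052). With 4 libraries and a block, that fit has little left to estimate the spread from, so these SE are uncertain. Each of the 3 genes had an adjusted p of 0.0629 in edgeR's test, the same value after the Benjamini-Hochberg adjustment. The loss of calls therefore does not mean that the differences went away. After the data were seen, the replicate ratios were recomputed with other scalings: with DESeq2 size factors those of OGT-depleted libraries moved to 1.22 for HBE1 and 1.09 for CA2. The length of the short HBE1 transcript gave mean levels of 77.0 FPKM in WT and 259 FPKM after depletion, against 52.4 and 176. The filter on low counts removed no gene. With 2 libraries per group, depth was not the limit for these 3 genes, each with at least 726 reads per library.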
